A study of Mus musculus with 8 samples.

Results

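The 10 genes described here, Cdkn1a, Mdm2, Phlda3, Ccng1, Bax, Trp53inp1, Plk2, Sesn1, Btg2 and Zmat3, are transcriptional targets of the tumour suppressor p53 or genes known for slowing cell growth. They were chosen by symbol, as 10 of the 43430 gene rows in an RNA-seq count table, and all 10 were among the 12689 genes with enough reads to be tested. The cells were lung endothelium, taken at postnatal day 15 from mice of strain C57BL/6, sorted for the surface protein CD31 and frozen as lysates before RNA extraction. In 4 knockout (KO) libraries the endothelial gene for QPC had been deleted, read here as Uqcrq, which encodes a component of complex III of the mitochondrial respiratory chain, and 4 libraries came from wild-type (WT) mice. Tamoxifen, which starts the deletion, was given from day 0 to day 4, and the treatment text is the same for both groups. Neither the promoter of the inducible Cre nor whether WT mice carried it is given in the sources used here. The labels do not tie each library to its own animal, so a p-value measures the spread between libraries, part of which may be technical.

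p53 is a transcription factor that is held at a low level by the ubiquitin ligase Mdm2 and accumulates after DNA damage, nucleotide shortage or ribosomal stress. It then switches on genes that stop the cell cycle, above all the kinase inhibitor Cdkn1a (p21), genes that permit cell death such as Bax, and genes that restrain growth signalling such as the sestrins. Several of these genes also answer to other inputs, among them growth factor signals for Btg2 and Plk2 and FOXO transcription factors for Sesn1 and Trp53inp1.

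The 10 genes did not move together. Phlda3, which encodes a repressor of AKT signalling, was 2.49-fold higher in KO cells, while Plk2, Sesn1 and Btg2 were lower, at 58.6%, 49.4% and 64.4% of their WT means. Of the 10 genes 1 was called higher and 3 were called lower, a call being a Benjamini-Hochberg adjusted p under 0.05 over all genes tested, from edgeR's quasi-likelihood test. Over all genes 3.63% were called, 2.25% higher and 1.39% lower. Cdkn1a showed the largest fold of the 10, 4.49 between the group means, but did not pass in edgeR (adjusted p = 0.098), while it passed with DESeq2 (0.00409) and limma voom (0.00776). For 7 of the 10 genes the 4 KO libraries lay entirely on one side of the 4 WT libraries, 3 above and 4 below, and such a separation was seen in 11.6% of all genes tested. Phlda3 and Plk2 remained called when any 1 library was left out. The calls of Sesn1 and Btg2 both ended without KO replicate 2, KO replicate 3, WT replicate 1, WT replicate 2 or WT replicate 4, so that 2 members were called in each of those fits. After removal of the dependence of each library on length and GC content of the transcripts 1 member was called, Plk2, and 38.0% of all called genes were higher in KO, against 61.8% without that step. The estimates of the 3 members that lost their call there were 1.12 for Phlda3, -1.14 for Sesn1 and -0.83 for Btg2 on the log2 scale, against 1.31, -1.02 and -0.64 without that step (edgeR adjusted p = 0.107, 0.0553 and 0.0512 with it). With that dependence learnt from the more highly expressed genes alone, a setting chosen after seeing the data, the same 4 members were called.

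Library totals were 6407924 to 13981329 counts, and a member had between 76 and 10508 counts in a library. Uqcrq, measured to check the labels, had 1.59, 15.6, 9.57 and 13.97 CPM (read counts scaled to a common library size after TMM normalisation) in KO replicates 1 to 4, against 26.3, 24.5, 26.8 and 31.5 CPM in WT replicates 1 to 4. All KO libraries were below all WT libraries, but to unequal depth, and Uqcrq itself was not called (log2 fold change -1.42, SE 0.53, edgeR adjusted p = 0.179). WT replicate 3, the shallowest library, and KO replicate 1 stood apart from the others on the first and second principal components, and Phlda3 and Plk2 were still called without both. The 12 endothelial markers summed to 16014 to 22804 CPM in KO and 19239 to 23357 CPM in WT libraries, and edgeR called Eng higher and Tek and Erg lower among them (adjusted p = 0.0402, 0.00762 and 0.0231). The 10 markers of alveolar type 2 cells, an epithelial cell of the lung, summed to 3905 to 17017 CPM in KO and 4111 to 23337 CPM in WT libraries. All 10 of these markers had a fold change below 0, none was at 0 counts throughout, and 0 were called by edgeR, DESeq2 or limma voom or had an unadjusted edgeR p under 0.05. With their summed level as a covariate in edgeR the same 4 members were called, and Cdkn1a passed too. The marker lists of 8 other cell types, lymphatic endothelium among them, held 45 tested entries, with 1 gene counted in 2 lists. Of these entries 0 were called by edgeR or voom and 1 by DESeq2, and 2 had an unadjusted edgeR p under 0.05.

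**Figure D1:**
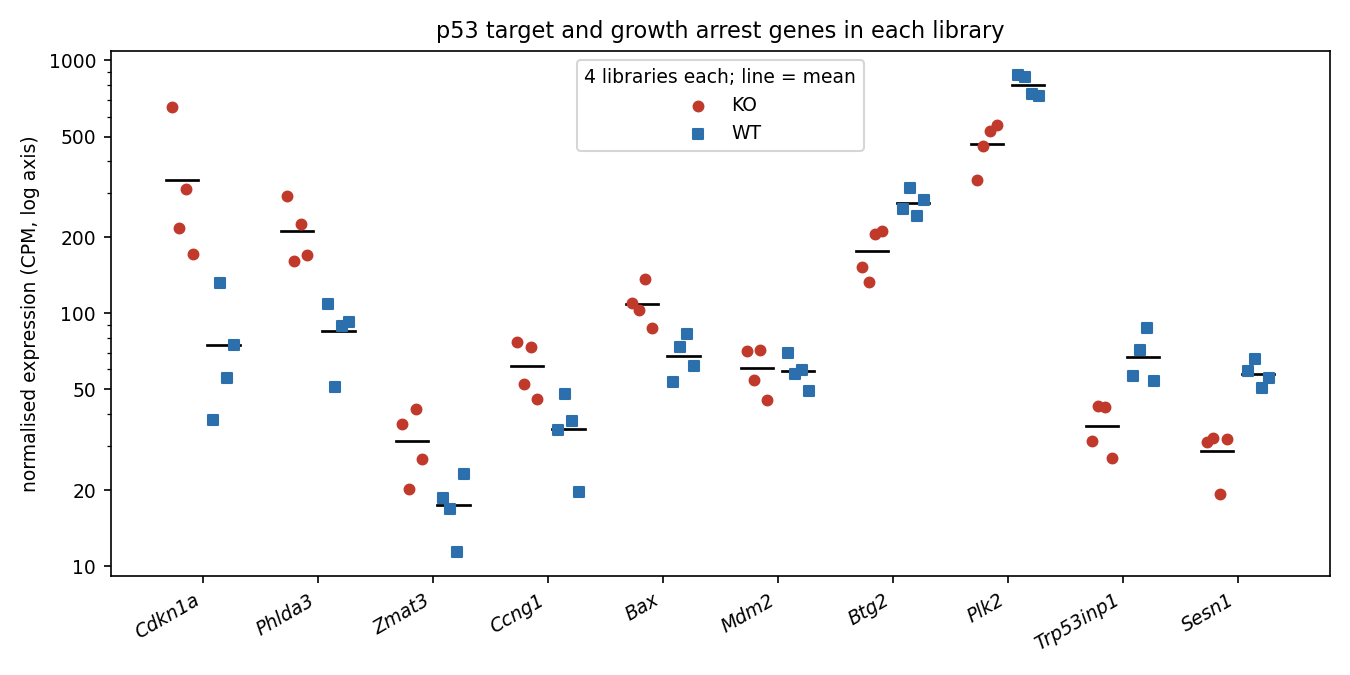
Normalised expression of each gene (CPM, log axis) in the 4 KO libraries (circles) and the 4 WT libraries (squares), with a line at each group mean. The groups do not overlap for Cdkn1a, Phlda3, Bax, Btg2, Plk2, Trp53inp1 and Sesn1, and they overlap for Zmat3, Ccng1 and Mdm2.

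The 250 bases before the annotated transcription start were read from RefSeq (GRCm38.p6) for the 8 members that have an entry, in 10 windows, since Cdkn1a and Sesn1 have 2 starts each. They are shown because p53 binds a pair of short half-sites that lie close to the start in some of its targets and far from it in others. The p53 half-site consensus, 10 letters that read alike on both strands as a pattern, was found in 5 of the 10 windows, those of Cdkn1a, Mdm2, Ccng1, Bax and Sesn1. It was in 7.13% of the 32851 windows of all genes. A match is a property of the letters only and is not evidence of binding. Those of 4 genes with a match and of Phlda3 and Plk2, the 2 genes called in every fit with 1 library left out, are given here, 5′ to 3′ on the strand of the gene, in lower case with each half-site match in capitals.
Cdkn1a, chr17:29090729-29090978, plus strand: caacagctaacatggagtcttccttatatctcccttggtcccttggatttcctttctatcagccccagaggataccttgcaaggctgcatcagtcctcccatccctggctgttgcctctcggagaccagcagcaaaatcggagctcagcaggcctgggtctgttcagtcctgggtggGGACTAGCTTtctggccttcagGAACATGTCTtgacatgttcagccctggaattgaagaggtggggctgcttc
Bax, chr7:45466899-45467148, minus strand: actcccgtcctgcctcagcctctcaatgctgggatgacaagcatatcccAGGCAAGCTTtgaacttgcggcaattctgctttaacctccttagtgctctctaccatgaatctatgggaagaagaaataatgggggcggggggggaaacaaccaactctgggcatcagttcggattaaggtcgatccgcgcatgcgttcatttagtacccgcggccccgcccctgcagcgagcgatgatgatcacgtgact
Ccng1, chr11:40755287-40755536, minus strand: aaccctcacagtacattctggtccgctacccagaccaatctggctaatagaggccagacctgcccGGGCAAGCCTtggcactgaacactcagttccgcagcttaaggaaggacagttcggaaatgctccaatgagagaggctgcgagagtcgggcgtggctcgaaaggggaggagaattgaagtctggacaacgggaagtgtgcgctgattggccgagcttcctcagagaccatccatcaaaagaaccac
Sesn1, chr10:41887189-41887438, plus strand: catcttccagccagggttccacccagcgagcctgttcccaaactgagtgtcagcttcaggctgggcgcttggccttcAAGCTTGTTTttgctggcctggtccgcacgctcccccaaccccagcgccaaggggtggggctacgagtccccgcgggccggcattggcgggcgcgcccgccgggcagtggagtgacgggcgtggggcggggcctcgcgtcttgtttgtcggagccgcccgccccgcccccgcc
Phlda3, chr1:135765835-135766084, plus strand: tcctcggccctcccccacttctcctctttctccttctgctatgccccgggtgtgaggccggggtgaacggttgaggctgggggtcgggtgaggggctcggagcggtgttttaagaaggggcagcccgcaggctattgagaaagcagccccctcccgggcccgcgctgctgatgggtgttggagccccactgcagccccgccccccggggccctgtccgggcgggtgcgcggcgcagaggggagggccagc
Plk2, chr13:110394794-110395043, plus strand: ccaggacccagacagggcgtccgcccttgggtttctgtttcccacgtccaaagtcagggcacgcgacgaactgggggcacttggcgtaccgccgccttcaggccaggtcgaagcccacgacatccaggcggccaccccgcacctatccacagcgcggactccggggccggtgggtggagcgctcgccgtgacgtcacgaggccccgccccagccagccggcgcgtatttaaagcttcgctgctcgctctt
The Cdkn1a window, that of its upstream start, was the 1 window with 2 matches, which begin 73 and 51 bases before the start. These 2 matches have other letters between them. The second holds CATG and is followed without a gap by tgacatgttc, which differs from the consensus in its first letter only. That stretch is therefore in lower case, and it holds the CATG that begins 38 bases before the start. Another CATG begins 240 bases before the start. CATG, searched on both strands, was in 2 of the 10 member windows and in 53.9% of all windows, and it can lie inside a half-site. The windows of Phlda3, Plk2 and Btg2 held no half-site match.

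Cdkn1a (ENSMUSG00000023067) lies on the plus strand of chromosome 17 from 29090976 to 29100727 in GRCm38, and its product p21 blocks the cyclin-dependent kinases that carry the cell from G1 into S phase. Its expression was 653, 218, 310 and 171 CPM in KO replicates 1 to 4, against 37.8, 132, 55.8 and 75.0 CPM in WT replicates 1 to 4. Every KO library lay above every WT library, with KO replicate 1 far above the other KO libraries and WT replicate 2 closest to KO. The means were 338 ± 218 CPM in KO and 75.2 ± 40.9 CPM in WT (SD, n = 4 each), and the log2 fold change was 2.17 (SE 0.56, 95% interval 0.85 to 3.48, edgeR adjusted p = 0.098). The adjusted p fell under the threshold with DESeq2 (0.00409), limma voom (0.00776) and limma voom with sample weights (0.0049). It did so too in edgeR with the Y-linked gene level (0.0105) or the alveolar type 2 level (0.0156) as a covariate. Over all alternatives tried the adjusted p of Cdkn1a ran from 0.00409 to 0.354, and without KO replicate 1 its log2 fold change was 1.63 (edgeR adjusted p = 0.0709).

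Among the KO libraries, those with the least Uqcrq transcript had the most Cdkn1a. KO replicate 1 had the least Uqcrq, 1.59 CPM, and the most Cdkn1a, 653 CPM, and KO replicate 3 was second in both, with 9.57 CPM of Uqcrq and 310 CPM of Cdkn1a. KO replicates 2 and 4 retained 15.6 and 13.97 CPM of Uqcrq and had 218 and 171 CPM of Cdkn1a. These are 4 libraries, too few for a correlation, and the order was looked for after the values were seen. KO replicate 1 also stood apart on the second principal component. It had 12301 genes with a count, against 14034 to 14916 in the other KO libraries. Whether this bears on its Uqcrq or Cdkn1a value was not tested. In bulk RNA a mixture of deleted and undeleted cells cannot be told apart from a partial loss in every cell.

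**Figure D2:**
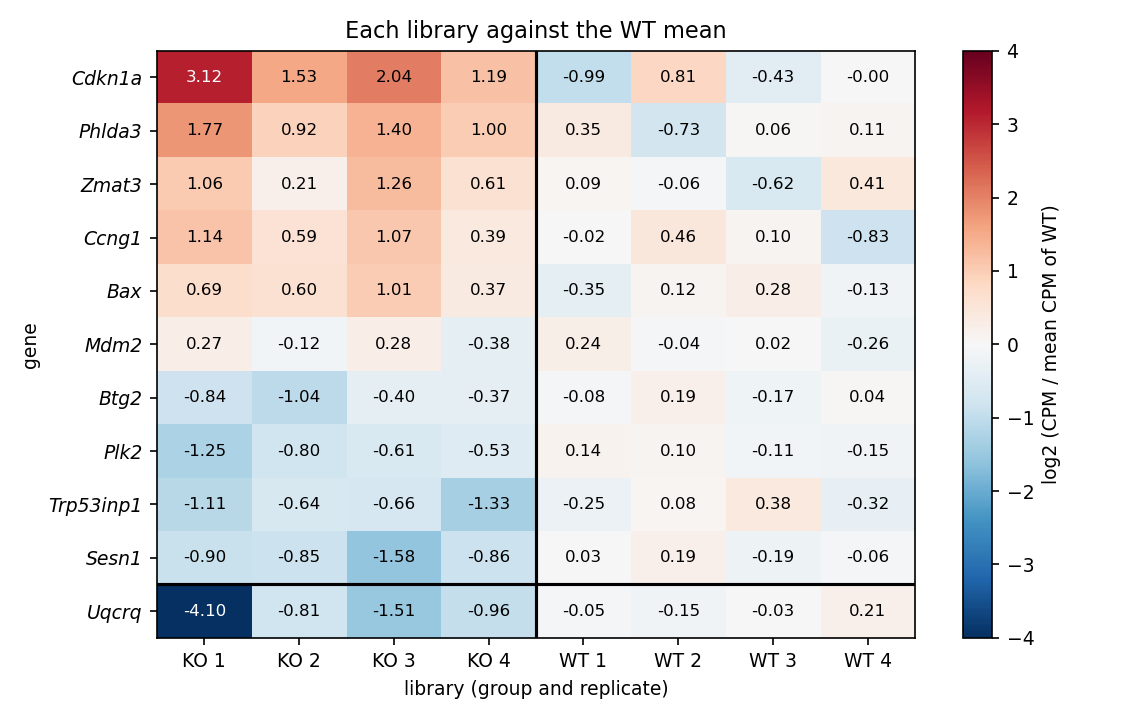
Log2 ratio of each library's CPM to the mean CPM of the 4 WT libraries, for the 10 genes and, under the line, for Uqcrq. KO replicate 1 has the lowest Uqcrq ratio, -4.10, with the highest Cdkn1a ratio, 3.12, and the highest Phlda3 ratio, 1.77.

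Phlda3 (ENSMUSG00000041801) lies on the plus strand of chromosome 1 from 135766119 to 135769136, and its product competes with AKT for membrane lipids. It had 291, 161, 225 and 171 CPM in KO replicates 1 to 4, against 108, 51.3, 88.8 and 92.1 CPM in WT replicates 1 to 4. All KO libraries were above all WT libraries, and KO replicates 1 and 3 were again the highest. The means were 212 ± 59.5 CPM in KO and 85.2 ± 24.2 CPM in WT (SD, n = 4 each), a log2 fold change of 1.31 (SE 0.24, edgeR adjusted p = 0.00461). The adjusted p of Phlda3 was under the threshold in 24 of 25 alternatives, with the length and GC trend removed as the exception (log2 fold change 1.12, SE 0.32, edgeR adjusted p = 0.107).

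Bax (ENSMUSG00000003873, chromosome 7, 45461697 to 45466898, minus strand) encodes the pore-forming protein that opens the outer mitochondrial membrane during apoptosis. It had 110, 103, 136 and 87.8 CPM in KO replicates 1 to 4 and 53.4, 73.8, 82.5 and 62.0 CPM in WT replicates 1 to 4. The lowest KO library lay just above the highest WT library. Its log2 difference, 0.68 (SE 0.20, 95% interval 0.25 to 1.12), was not called (edgeR adjusted p = 0.08), although it passed by DESeq2 (0.0441), voom with sample weights (0.0413), the newer edgeR dispersion option (0.0439) and with the Y-linked covariate (0.0394), in a range of adjusted p up to 0.81. Bax shares exon bases on its own strand with the annotated gene Gm45808, which has no row in the table, and Cdkn1a with AC167363.2 on the opposite strand, also without a row. Whether the counting used strand was not found in the labels, and the reads of such pairs cannot be told apart.

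Ccng1 and Zmat3 had means above WT with overlapping groups. Ccng1 (ENSMUSG00000020326, chromosome 11, 40748552 to 40755311, minus strand), whose cyclin G1 protein feeds back on Mdm2, had 77.0, 52.6, 73.3 and 45.8 CPM in KO replicates 1 to 4 and 34.5, 48.1, 37.4 and 19.6 CPM in WT replicates 1 to 4. WT replicate 2 lay above KO replicate 4, and its log2 difference, 0.83 (SE 0.29), was not called (edgeR adjusted p = 0.143). Zmat3 (ENSMUSG00000027663, chromosome 3, 32334792 to 32366014, minus strand), an RNA-binding zinc finger protein gene, had 36.4, 20.2, 41.8 and 26.6 CPM in KO replicates 1 to 4 and 18.6, 16.8, 11.4 and 23.2 CPM in WT replicates 1 to 4. Here KO replicate 2 lay below WT replicate 4, and the log2 fold change was 0.83 (SE 0.35, edgeR adjusted p = 0.257). Neither Ccng1 nor Zmat3 was called in any of the 25 alternatives.

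Mdm2 (ENSMUSG00000020184, chromosome 10, 117688875 to 117710758, minus strand), which closes the feedback loop on p53, had 71.2, 54.3, 71.6 and 45.3 CPM in KO replicates 1 to 4, against 69.9, 57.4, 59.9 and 49.5 CPM in WT replicates 1 to 4. The groups covered the same range of values. The log2 fold change was 0.03 (SE 0.23, edgeR adjusted p = 0.984), and its 95% interval of -0.45 to 0.51 holds changes of moderate size in either direction. The sign of the Mdm2 estimate turned in 7 of 25 alternatives. Trp53, which encodes p53 itself, averaged 126 ± 35.5 CPM in KO and 99.9 ± 10.3 CPM in WT (SD, n = 4 each), and Mdm4, the partner of Mdm2, 42.7 ± 9.80 CPM in KO and 53.6 ± 18.8 CPM in WT (SD, n = 4 each). Neither Trp53 (edgeR adjusted p = 0.507) nor Mdm4 (edgeR adjusted p = 0.708) passed. KO replicate 4, with the most Trp53 transcript at 175 CPM, had the least Cdkn1a of the KO libraries.

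Plk2 (ENSMUSG00000021701) lies on the plus strand of chromosome 13 from 110395046 to 110400844 and encodes a polo-like kinase of centriole duplication. It had 335, 458, 525 and 555 CPM in KO replicates 1 to 4, against 879, 857, 739 and 721 CPM in WT replicates 1 to 4. All KO libraries were below all WT libraries, with KO replicate 1 the lowest. The means were 468 ± 97.4 CPM in KO and 799 ± 80.4 CPM in WT (SD, n = 4 each), and the log2 fold change was -0.77 (SE 0.15, edgeR adjusted p = 0.00873). Plk2 was called in all 25 alternatives tried, with log2 fold changes from -0.96 to -0.64 and adjusted p of at most 0.0317.

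Sesn1 (ENSMUSG00000038332, chromosome 10, 41809935 to 41908424, plus strand) encodes a sestrin, which restrains the growth kinase complex mTORC1. It had 30.9, 32.1, 19.3 and 31.9 CPM in KO replicates 1 to 4 and 59.1, 66.2, 50.7 and 55.3 CPM in WT replicates 1 to 4. The highest KO library was well under the lowest WT library. Its log2 fold change was -1.02 (SE 0.25, edgeR adjusted p = 0.0335), with adjusted p of 0.0393 to 0.126 when single libraries were left out and a call in 16 of 25 alternatives. Besides the 5 libraries named above, the call ended without KO replicate 4.

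Btg2 (ENSMUSG00000020423, chromosome 1, 134075170 to 134079120, minus strand), an antiproliferative gene whose product recruits the deadenylase that shortens mRNA tails, had 153, 133, 207 and 212 CPM in KO replicates 1 to 4, against 258, 312, 243 and 280 CPM in WT replicates 1 to 4. The groups did not overlap. Its log2 fold change of -0.64 (SE 0.17) was only just called (edgeR adjusted p = 0.049). With single libraries left out the adjusted p was 0.031 to 0.157, and the call also ended without KO replicate 1 or WT replicate 3. Trp53inp1 (ENSMUSG00000028211, chromosome 4, 11156431 to 11174379, plus strand), a stress protein gene linked to autophagy and cell death, had 31.2, 43.2, 42.5 and 26.9 CPM in KO replicates 1 to 4 and 56.6, 71.3, 87.5 and 53.9 CPM in WT replicates 1 to 4. These groups did not overlap either, with a log2 fold change of -0.90 (SE 0.25) that did not pass (edgeR adjusted p = 0.0603, and 0.0122 to 0.219 over the alternatives, with a call in 5 of 25).

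**Figure D3:**
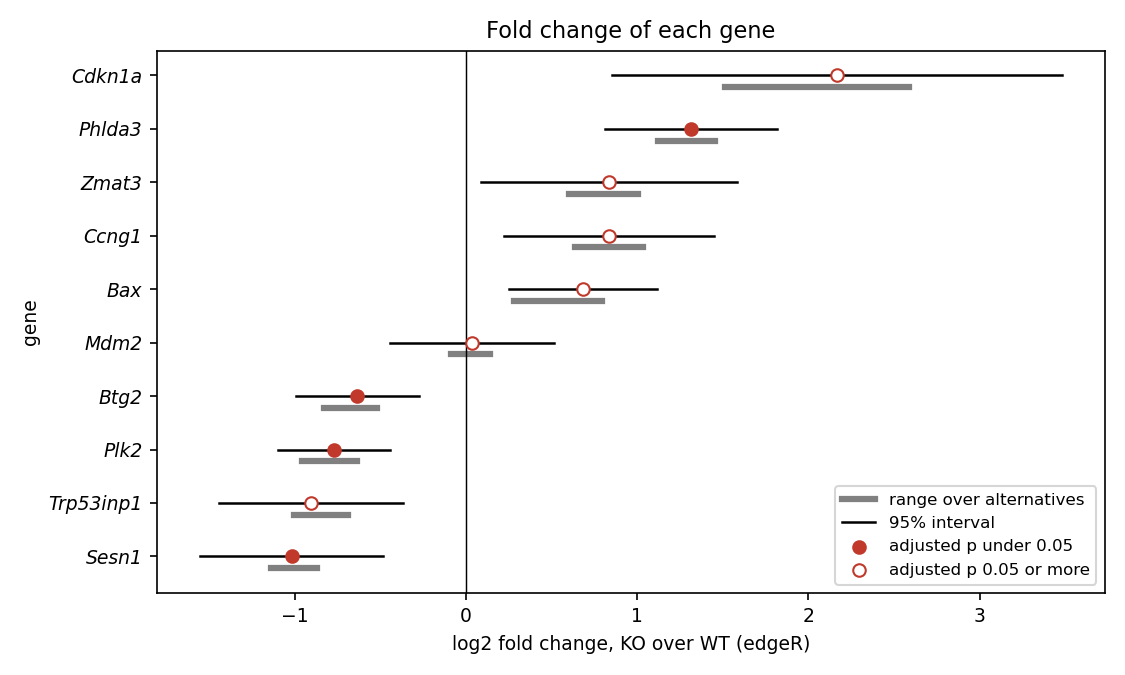
Log2 fold change of KO over WT for each gene from edgeR, with its 95% interval (thin line), the range over the 25 alternatives (thick grey line) and filled points for an adjusted p under 0.05. The intervals of 9 genes exclude 0 before adjustment over all genes, 5 above and 4 below, and that of Mdm2 spans it. The share of all genes whose interval excludes 0 was not counted.

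Set per kilobase of exon length, which allows levels of different genes to be compared, the order of the 10 genes differed between the groups. In KO cells Phlda3 came first at 136 ± 38.2 CPM per kilobase, followed by Plk2 at 104 ± 21.7, Cdkn1a at 95.1 ± 61.3, Bax at 69.2 ± 12.9 and Btg2 at 64.2 ± 14.4 CPM per kilobase (SD, n = 4), and the library ranges of each neighbouring pair among these overlapped. In WT cells Plk2 came first at 178 ± 17.9 CPM per kilobase, above Btg2 at 99.7 ± 10.9 and Phlda3 at 54.6 ± 15.5 CPM per kilobase (SD, n = 4), and these 3 ranges were apart from each other. Cdkn1a ranked 5 in WT cells at 21.2 ± 11.5 CPM per kilobase, in a range that overlapped those of Bax above and Sesn1 below it. Zmat3 was last in both groups, at 2.73 ± 0.85 CPM per kilobase in KO and 1.53 ± 0.43 CPM per kilobase in WT (SD, n = 4 each), with no overlap with the gene above it in either group. The exon length is that of all annotated transcripts joined, so genes with many isoforms come out low on this scale.

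The 5 genes whose profile over the 8 libraries was closest to that of Cdkn1a, by the root mean square difference of standardised log2 CPM, were Pde8a (0.178), Dcbld1 (0.211), Cstb (0.222), Paip1 (0.225) and Timm9 (0.227). The closest of the other members was Bax, ranked 280 by this measure, followed by Ccng1, Zmat3 and Phlda3 at 418, 650 and 829. Plk2 ranked 12617, close to the end of the 12689 genes tested.

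Of 47 other known p53 targets tested from a list of 50, edgeR called 1, as higher, a share near the 2.25% of all genes called higher. DESeq2 called 4 and limma voom 2, all higher, while over all genes they called 458 of 10239 and 305 of 12689 higher. An unadjusted edgeR p under 0.05 was seen for 9, all higher, and its share over all genes was not counted. Of the 47 estimates 34 were above 0, with a median log2 fold change of 0.47, against 0.01 over all genes tested. The gene called was Gdf15, a secreted stress factor that is also induced by the integrated stress response, at 135, 55.3, 56.3 and 14.9 CPM in KO replicates 1 to 4 and at most 1.98 CPM in a WT library (edgeR adjusted p = 0.0391). Aen, a nuclease gene of the apoptotic response, averaged 52.0 ± 18.5 CPM in KO and 25.2 ± 4.69 CPM in WT cells, and Gpx1, a glutathione peroxidase gene, 146 ± 8.11 CPM in KO and 101 ± 11.7 CPM in WT (SD, n = 4 each). Neither Aen nor Gpx1 passed (edgeR adjusted p = 0.0726 and 0.0801). Pvt1 was at 0 in every WT library, and the list's median was the same with that gene set to a floor of 3 counts per library.

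Of p53 itself and its regulators, 22 tested, 2 were called, both higher, with a median of -0.22 on the log2 scale. Both are ribosomal protein genes whose products bind Mdm2, Rpl5 with 548 ± 47.9 CPM in KO cells against 347 ± 41.3 CPM in WT cells, and Rpl11 with 327 ± 14.9 CPM in KO cells against 218 ± 41.3 CPM in WT cells (SD, n = 4 each, edgeR adjusted p = 0.009 and 0.0356). They belong to a protein family with many processed pseudogenes, so single values are uncertain. Rpl26 and Ep300, a histone acetyltransferase gene, did not pass (edgeR adjusted p = 0.13 and 0.131).

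Of 26 other growth arrest genes tested 0 were called by edgeR and 0 by limma voom. DESeq2 called 2 lower, against 404 of 10239 genes lower over all genes. An unadjusted edgeR p under 0.05 was seen for 4, all lower, and its share over all genes was not counted. The median of the 26 genes was -0.15 on the log2 scale. Ccng2, the cyclin G2 paralog of Ccng1, averaged 39.9 ± 12.4 CPM in KO and 76.0 ± 21.9 CPM in WT (SD, n = 4 each), the opposite side of WT from Ccng1. The p21 paralogs Cdkn1c and Cdkn1b averaged 38.1 and 87.6 CPM in KO against 64.8 and 125 CPM in WT, also opposite to Cdkn1a. None of Ccng2, Cdkn1c and Cdkn1b passed (edgeR adjusted p = 0.0817, 0.109 and 0.238). Among the 21 paralogs of the members tested, edgeR called 2 higher, the mitotic kinase gene Plk1 and the BAX relative Bok, of which limma voom called neither. DESeq2 called 2 paralogs higher and 3 lower, against 458 higher and 404 lower of 10239 genes over all genes. Of the paralogs, 2 higher and 4 lower had an unadjusted edgeR p under 0.05, again without a share over all genes beside it. Plk1 had 26.4, 52.997, 30.1 and 49.96 CPM in KO replicates 1 to 4 and 10.9, 15.8, 9.12 and 18.5 CPM in WT replicates 1 to 4, so that it rose (log2 fold change 1.55, edgeR adjusted p = 0.0217) where its paralog Plk2 fell. Bok averaged 34.7 ± 14.3 CPM in KO and 9.41 ± 6.40 CPM in WT (SD, n = 4 each, edgeR adjusted p = 0.0493).

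In the BCL2 family, 14 tested apart from Bax, edgeR called Bok higher and Bmf, a cell death activator, lower, while limma voom called 0 higher and 1 lower. Bmf averaged 32.1 ± 13.5 CPM in KO and 80.6 ± 19.6 CPM in WT (SD, n = 4 each, log2 fold change -1.33, edgeR adjusted p = 0.0305), with a median over the family of 0.02 on the log2 scale. Bcl2, an inhibitor of cell death, and Bcl2l11, an activator, did not pass (edgeR adjusted p = 0.18 and 0.177). Of 11 genes tested that are used as markers of senescence 0 were called by edgeR, while DESeq2 and limma voom each called 1 higher. Over all genes DESeq2 called 458 of 10239 higher and limma voom 305 of 12689. Of the 11, 3 had an unadjusted edgeR p under 0.05, all higher, a threshold whose share over all genes was not counted. Cdkn2a, which is in this list and also in that of the p53 regulators, had too few reads to be tested.

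Of 14 genes of the G1 machinery, the cyclins and kinases on which p21 acts and their partners, 2 were called, both higher. Their estimates were above 0 for 13, with a median of 0.55 on the log2 scale. Over all genes 2.25% were called higher, and 6475 of 12689 estimates were above 0. Ccnd1 (cyclin D1) averaged 473 ± 117 CPM in KO and 214 ± 45.4 CPM in WT cells, and Cdk4 245 ± 69.5 CPM in KO and 142 ± 7.79 CPM in WT (SD, n = 4 each, edgeR adjusted p = 0.00333 and 0.0218). All 16 proliferation markers, of which Ccna2 is also in the G1 list, had estimates above 0, with a median of 1.07. The replication genes Mcm6 and Tyms were called higher (edgeR adjusted p = 0.00467 and 0.0418), while limma voom called 1 of the 16 and DESeq2 3. The summed level of the 16 markers was 741, 1288, 1079 and 2068 CPM in KO replicates 1 to 4, against 584, 909, 591 and 643 CPM in WT replicates 1 to 4. Within KO the libraries ran in the reverse order of Cdkn1a, from replicate 1 with the least to replicate 4 with the most, and within WT in the same order as Cdkn1a, with replicate 2 the highest in both. These orders rest on 4 libraries each and were looked for after the values were seen. In bulk RNA, more cells of a cycling type and more RNA per cycling cell cannot be told apart.

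Btg2 and Plk2 are also induced within minutes by growth factors and by tissue dissociation, together with the immediate early genes. Of 24 such genes tested edgeR called 2, both lower, with a median of -0.29 on the log2 scale. DESeq2 called 4 lower and limma voom 2. Over all genes edgeR called 1.39% lower, DESeq2 404 of 10239 and limma voom 192 of 12689. Egr1, a zinc finger transcription factor gene, averaged 276 ± 42.3 CPM in KO and 617 ± 134 CPM in WT cells, and Jun, a subunit of AP-1, 824 ± 133 CPM in KO and 1167 ± 81.1 CPM in WT (SD, n = 4 each, edgeR adjusted p = 0.00101 and 0.0407). The summed level of the list was 4906 to 6545 CPM in KO and 5808 to 8087 CPM in WT libraries, ranges that overlap, and its part in the lower Btg2 and Plk2 values was not tested.

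**Figure D4:**
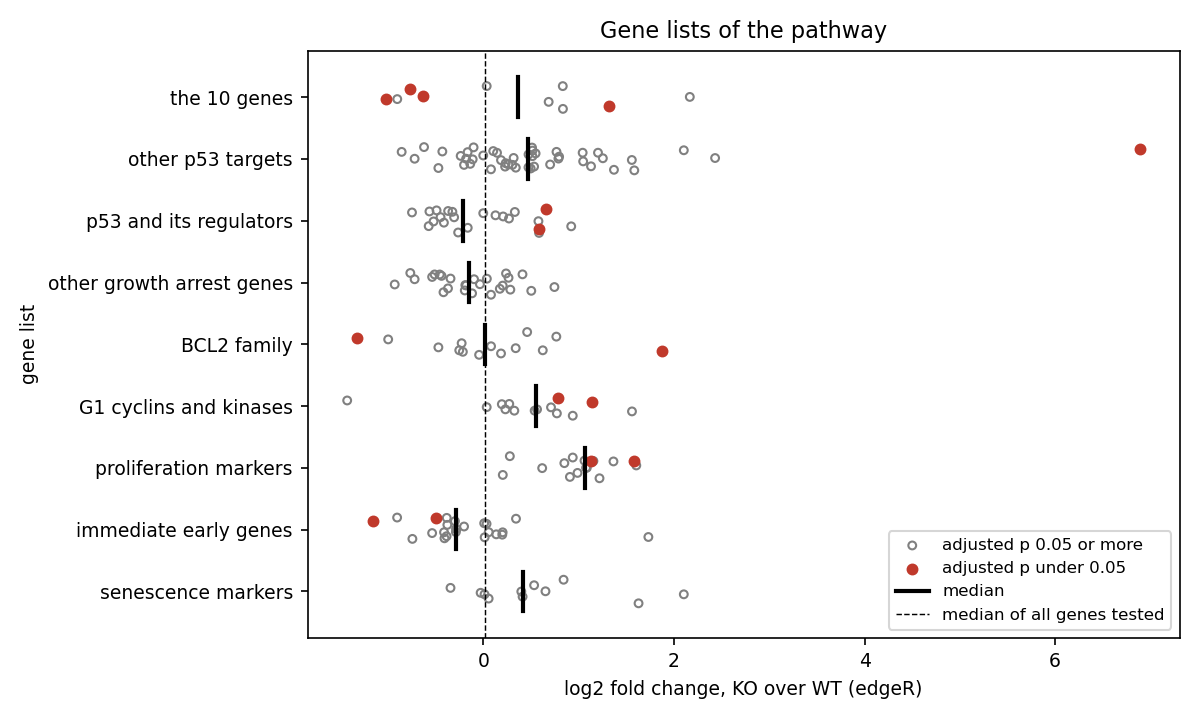
Log2 fold change of KO over WT (edgeR) for the tested genes of each list, with filled points for an adjusted p under 0.05, a bar at each list's median and a dashed line at the median of all genes tested, 0.01. Pvt1 is left out because its WT libraries are all at 0, and the proliferation markers, with a median of 1.07, lie furthest above the dashed line.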

How the data were processed

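Groups were taken from the sample titles. The authors deposited unnormalised read counts, 1 value per gene and library, and 0 value columns were left unmatched. The submitters' processing notes name bcl2fastq, TopHat, HTSeq, edgeR and the build mm10, while annotation, strand and filter settings were not found in the labels. Symbols, exon lengths and coordinates came from GENCODE vM21 (GRCm38), which named 42546 of 43430 gene IDs. Replicates all differed by more than sampling noise, with chi-square values of 32.4 to 74.5 for each degree of freedom.

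Library sizes were scaled by TMM, and genes were kept by filterByExpr at a minimum count of 10 and a minimum total of 15. The KO over WT contrast was tested in edgeR 4.0.16 (R 4.3.3) by the robust quasi-likelihood F test with genotype as the only term, adjusted by Benjamini-Hochberg over 12689 genes at 0.05. The common biological coefficient of variation was 63.5%. The steps were tested on simulated counts. The 10 genes, the gene lists and the tests were chosen with earlier results of these data known, and lists were described without a test. By rule the text names the 10 genes, Uqcrq, Trp53, Mdm4, up to 4 genes of a described list with the smallest p, and the 5 genes closest to Cdkn1a in pattern, and any other gene named was chosen after its values were seen. One gene that the rule names is not reported here. Reads carry no molecular identifiers, so counting limits cover counting error only. Alternatives used DESeq2 1.42.0, limma 3.58.1, other size factors, filters, covariates and sets of libraries. Promoter sequences are those of RefSeq.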

Additional observations from a re-analysis of the deposited data

Results flagged for a closer look

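Among the 20 sets of 4 libraries formed by the 10 genes in each group, 1 held a library far from the other 3. Sesn1 had 19.3 CPM in KO replicate 3, against 30.9 to 32.1 CPM in the other KO libraries, a gap of 0.907 of the group's range, which is past Dixon's 95% critical value. Chance gives about 1 such set in 20. Without KO replicate 3 the log2 fold change of Sesn1 was -0.87 (edgeR adjusted p = 0.126).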

How the results depend on the processing

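The number of genes called, 461, became 862 with DESeq2, 747 with the newer edgeR dispersion option and 150 once the length and GC trend was taken out, and ran from 270 to 446 with single libraries left out. The 4 members called became 7 with DESeq2, 2 with the replicate block, 1 with the trend removed and 2 without WT replicate 3 and KO replicate 1 together, and 2 to 3 with single libraries left out. With the trend learnt only from the genes above the median level, a setting chosen after seeing the data and after 2 fits over all genes had lost calls, the same 4 members and 448 genes were called, so these lost calls depend on how the trend is fitted. Mdm2 changed sign with library totals only (-0.019), with the trend removed (-0.0902, or -0.0291 from the genes above the median level) and without WT replicate 3 and KO replicate 1 together (-0.0426), and ran from -0.0545 to 0.14 with single libraries left out. The other 9 genes kept their direction in all 25 alternatives. Deviations of same-numbered libraries correlated at -0.104 to 0.00442 over all genes, against -0.135 to 0.118 for libraries of unlike number. A correlation over all genes cannot show whether same-numbered libraries shared a litter or a batch. The reason for the lost calls under the block (Sesn1 adjusted p = 0.061 and Btg2 0.0912 by edgeR) was not tested. Zmat3 had the fewest counts of a member in a library, 76. With counts thinned to the smallest library total its log2 fold change was 0.92 (edgeR adjusted p = 0.192), against 0.83 (0.257) without thinning. The cause of the other shifts was not tested.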

Other observations

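Sesn1 and Trp53inp1, 2 of the genes below WT, are also known as targets of FOXO transcription factors. In a list of FOXO targets written after the data were seen, 24 genes were tested, edgeR called 2, both lower (Sesn1 and Bmf), and 20 estimates were below 0. DESeq2 called 7 lower and limma voom 3. Over all genes edgeR called 1.39% lower, DESeq2 404 of 10239 and limma voom 192 of 12689. The median log2 fold change was -0.38, against 0.01 over all genes tested, and the list was given no test. The list was prompted by Sesn1 and Trp53inp1 and holds both, so these values partly restate it. Without the pair 22 genes were tested, of which 1 was called, as lower, and 18 estimates were below 0, with a median of -0.32 and a summed level of 1959 to 2584 CPM in KO libraries and 2773 to 3763 CPM in WT libraries. Txnip, an inhibitor of thioredoxin and glucose uptake, averaged 326 ± 141 CPM in KO and 925 ± 381 CPM in WT (SD, n = 4 each) with separate groups, and did not pass (edgeR adjusted p = 0.0557). Pik3ip1, an inhibitor of phosphoinositide 3-kinase, averaged 26.1 ± 7.01 CPM in KO and 45.9 ± 4.76 CPM in WT (SD, n = 4 each, edgeR adjusted p = 0.131). Foxo1 itself averaged 118 ± 8.45 CPM in KO and 158 ± 32.2 CPM in WT (SD, n = 4 each, edgeR adjusted p = 0.238). The summed level of the list was 2017 to 2646 CPM in KO libraries and 2889 to 3901 CPM in WT libraries.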
